A study of Mus musculus with 24 samples.

Results

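The regions described here were peaks of dimethylated lysine 4 of histone H3 (H3K4me2) that were found in the mouse forelimb bud of both genotypes, with Sonic hedgehog or lacking it, and carried neither limb H3K27 acetylation nor H3K27me3. They were chosen by the measured peaks of 5 lists. A peak of the wild-type (WT) H3K4me2 list was a member if at least 1 bp of it overlapped a Shh-/- H3K4me2 peak and none of it overlapped a peak of the WT H3K27ac, the Shh-/- H3K27ac or the Shh-/- H3K27me3 list. Of 36613 WT H3K4me2 peaks, 8291 met the rule, which is 22.6% of the list, and this share only states what the rule took. No H3K27me3 list of WT limb buds was used, so the absence of that mark was known in the mutant alone.

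The chromatin immunoprecipitation and sequencing (ChIP-seq) lists came from 24 libraries, 14 of them immunoprecipitations, with 2 per condition and mark, and the authors called 1 list from both replicates of a condition. Limb buds were dissected from Swiss Webster embryos of stage E10.5 with 32 to 35 somites, either Shh-/- (homozygous for the tm1amc null allele) or littermate controls, labelled wild type, among which the study also counted heterozygotes. Embryos of several litters were pooled, to 400000 cells per immunoprecipitation. NIH3T3 cells are mouse embryonic fibroblasts with a working Hedgehog pathway. They had been kept for 48 h in low serum with 400 nM purmorphamine, an agonist of the Hedgehog transducer Smoothened, or with the solvent DMSO (control), and were used at 1000000 cells per immunoprecipitation. Because no condition had replicate lists, differences between lists or classes could not be tested against replicate error, and the 95% Wilson intervals given here cover the counting of peaks only. A limb bud holds several cell types, and in such bulk material a mark in few cells cannot be told apart from a low level in many.

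H3K4me2 is found at promoters and enhancers whether or not these are in use. H3K27ac accompanies active promoters and enhancers, while H3K27me3 is placed by Polycomb repressive complex 2 at silent developmental genes. An enhancer with methylated lysine 4 and no acetylation is commonly called primed. The members were examined under that name, but most were not distal: 5928 of the 8291 (71.5%, interval 70.5 to 72.5) overlapped a promoter window, which reached from 2 kb before to 1 kb after an annotated transcription start, beside 70.5% of all WT H3K4me2 peaks. Another 1021 members (12.3%) were intronic, 963 (11.6%) intergenic and 379 (4.57%) exonic, near the 14.2%, 11.4% and 3.90% of all WT H3K4me2 peaks. They are therefore called H3K4me2-only regions below rather than primed enhancers.

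To show what such regions look like in sequence, the 300 bp at the centre of 2 of the best-ranked members outside promoters are printed from GRCm38, plus strand, with CpG dinucleotides in capitals. The first lies in an intron of Vgll4, which encodes a cofactor of TEAD factors, and was acetylated in both NIH3T3 lists. It held 36 CpGs, 71.0% GC and a ratio of observed to expected CpGs of 0.96. The second is intergenic, 3024 bp from the start of the ubiquitin ligase gene Mycbp2, and had no NIH3T3 acetylation. It held 6 CpGs, 51.3% GC and a ratio of 0.31.
Vgll4 intron, chr6:114968800-114969099: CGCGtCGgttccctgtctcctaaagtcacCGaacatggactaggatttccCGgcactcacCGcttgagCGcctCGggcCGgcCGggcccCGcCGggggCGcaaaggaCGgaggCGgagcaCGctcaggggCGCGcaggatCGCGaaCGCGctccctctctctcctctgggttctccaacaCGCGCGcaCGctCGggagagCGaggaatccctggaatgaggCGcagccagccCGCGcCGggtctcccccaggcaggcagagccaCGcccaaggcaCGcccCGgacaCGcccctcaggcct
Mycbp2 flank, chr14:103349675-103349974: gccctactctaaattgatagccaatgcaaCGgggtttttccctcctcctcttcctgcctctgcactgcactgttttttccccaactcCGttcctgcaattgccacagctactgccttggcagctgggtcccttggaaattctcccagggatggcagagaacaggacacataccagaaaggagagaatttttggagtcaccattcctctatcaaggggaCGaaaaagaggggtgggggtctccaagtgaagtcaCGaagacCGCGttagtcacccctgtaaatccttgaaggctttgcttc
Both lie outside promoters, unlike most members, and the first is far richer in GC than most. Over all 8291 the centre held a median of 53.7% GC (quartiles 46.7 and 61.3) and a CpG ratio of 0.51 (quartiles 0.36 and 0.68), against 52.7% and 0.51 in all WT H3K4me2 peaks. With at least 50% GC and a ratio of at least 0.6 counted as CpG-rich, 2412 members (29.1%, interval 28.1 to 30.1) were CpG-rich, as were 30.1% of all WT H3K4me2 peaks and 78.0% (76.5 to 79.4) of the stable peaks that carried H3K27me3 and no H3K27ac. In CpG content the members were thus close to the list they came from, and they differed from Polycomb-marked peaks.

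The H3K4me2 values at the members belong to what chose them and are given as a description. A member's deposited rank in the WT list, where 1 is the highest score, ranged from 12 to 36592 with a median of 17861, and its width from 100 to 2650 bp with a median of 450 bp. The highest log2 ratio of ChIP to input within a member had a median of 3.10 in WT (range 2.04 to 5.56), and that of the best-ranked Shh-/- peak over it 3.36 (range 2.19 to 5.80). The WT value minus the Shh-/- value had a median of -0.18 and quartiles of -0.67 and 0.27, beside a median of -0.11 over all 27171 WT peaks shared with the mutant. Members lay on either side of equality, and because the Shh-/- value is that of the best-ranked peak over a member, it can come from a wider peak.

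**Figure D1:**
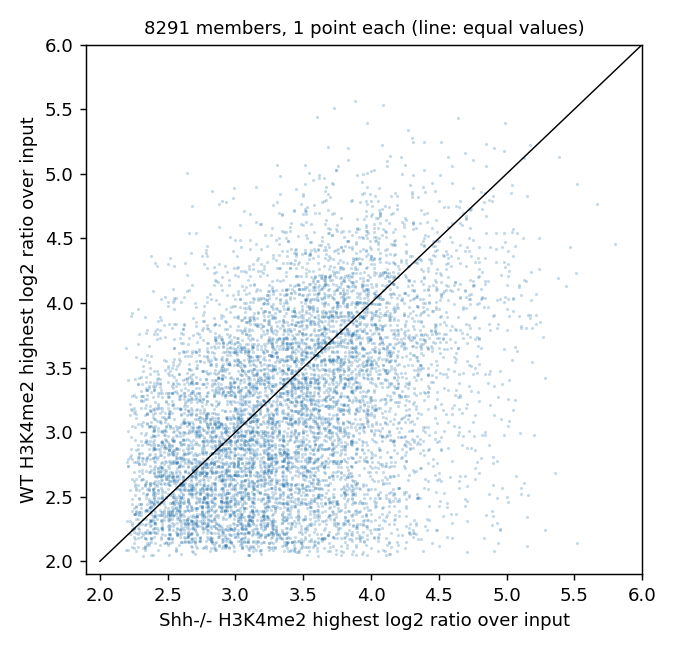
Each of the 8291 points is 1 member, with the highest log2 ratio over input of its best-ranked Shh-/- H3K4me2 peak on the x axis and that of the WT peak on the y axis. The points scatter on both sides of the line of equal values, from 2.04 to 5.56 in WT and from 2.19 to 5.80 in Shh-/-.

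Several members lay on the edge of the rule. Of the 8291, 268 abutted a WT H3K27ac peak without sharing a base, 156 a Shh-/- H3K27ac peak and 85 an H3K27me3 peak. On the other side, 268 stable peaks were left out for an overlap of at most 50 bp with a WT H3K27ac peak alone, 139 for one with a Shh-/- H3K27ac peak alone and 95 for one with an H3K27me3 peak alone. For 570 members the shared stretch with Shh-/- H3K4me2 was at most 50 bp, and 501 WT-only peaks without another mark lay within 50 bp of a Shh-/- H3K4me2 peak. Named examples just inside were the member at Ipo8, which encodes an importin and abutted a WT H3K27ac peak, and the members at the proneural factor gene Pou3f2 and the epithelial gene Perp, which abutted an H3K27me3 peak.

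Few members lay at a middle distance from limb acetylation, as was true of unacetylated peaks of the WT list at large. Of the 8291, 3229 (38.9%) lay within 1 kb of an H3K27ac peak of either genotype, only 678 (8.18%) between 1 and 5 kb, and 4384 (52.9%) farther than 5 kb, of which 2897 were over 20 kb away. Counted over all WT H3K4me2 peaks without limb acetylation, 5543 lay within 1 kb, 1650 between 1 and 5 kb and 10074 farther away. The near members, called shoulders here, bordered acetylated sites, and 2559 of the 3229 (79.3%) were in promoter windows, and 434 (13.4%, interval 12.3 to 14.7) had a CpG-rich centre, beside 67.9% and 10.8% of the 5543. Of the 4384 beyond 5 kb, 3023 (69.0%) were in promoter windows and 1768 (40.3%, interval 38.9 to 41.8) were CpG-rich, beside 61.9% and 45.0% of the 10074, so the contrast in CpG content was not particular to the members. The median distance from a member to the nearest Shh-/- H3K27me3 peak was 56801 bp, against 54501 bp over all WT H3K4me2 peaks.

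**Figure D2:**
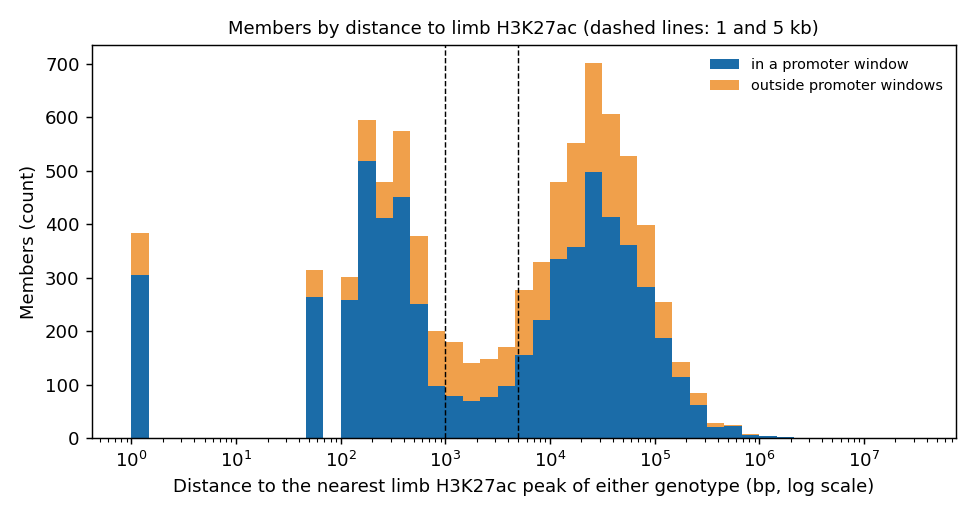
The histogram counts members by distance to the nearest limb H3K27ac peak of either genotype in bp on a log scale, with members in promoter windows in blue and the others in orange, and dashed lines at 1 and 5 kb. There were 3229 members within 1 kb, 678 between 1 and 5 kb and 4384 beyond.

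Members far from acetylation and outside promoters came nearest to the usual picture of a primed enhancer. There were 1361 of them, 16.4% of all members. Of these 710 (52.2%) were intergenic, 413 (30.3%) intronic and 238 (17.5%) exonic, and 364 (26.7%) were CpG-rich. The 3839 peaks of the whole WT list at such places stood at 46.8%, 34.4%, 18.8% and 27.2%, close to these shares in exons and in CpG content.

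NIH3T3 acetylation was not used by the rule, and under the rule as given it divided the members nearly evenly. The NIH3T3 lists were longer than the limb H3K27ac lists, with 87809 peaks with purmorphamine and 91023 in the control. The limb lists held 49679 peaks in WT and 43916 in Shh-/-, from fewer cells per immunoprecipitation. A site missing from a limb list may therefore be 1 that the shorter list did not reach, and this was not tested. Of the 8291, 3774 (45.5%, interval 44.4 to 46.6) overlapped an H3K27ac peak in both NIH3T3 lists and 3791 (45.7%, 44.7 to 46.8) in neither. Another 402 (4.85%, 4.41 to 5.33) did so with purmorphamine only and 324 (3.91%, 3.51 to 4.35) in the control only. Over all WT H3K4me2 peaks the shares were 55.4% in both lists, 3.08% with purmorphamine only, 2.81% in the control only and 38.7% in neither. The share in both lists was below that of the whole WT list, and both single-list shares were above it. The even split and the control-only share rested on how peaks were chosen. In the better-ranked 50% of the H3K4me2 lists 58.5% of members were in both NIH3T3 lists and 35.1% in neither, and after peaks within 1 kb were merged 40.0% and 54.1%. The control-only share fell to 2.56% and 2.22% under these settings, to 2.38% when exclusion reached 5 kb, and to 2.36% when NIH3T3 peaks within 500 bp counted as overlapping, all below the 2.81% of the whole list as deposited, for which these settings were not recomputed.

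The members' share also lay between those of the classes most like them. Among 11986 stable peaks acetylated in both limb lists, 86.1% (85.5 to 86.7) were in both NIH3T3 lists. Among 3084 stable peaks with H3K27me3 and no H3K27ac it was 18.8% (17.5 to 20.2), and among 5056 WT H3K4me2 peaks with no Shh-/- H3K4me2 and no other mark 18.3% (17.3 to 19.4). These intervals do not overlap that of the members. The last class is of narrow, low-ranked peaks, with a median width of 150 bp and a median rank of 29828, against 450 bp and 17861 for the members, and the part of width and rank in the gap was not tested.

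**Figure D3:**
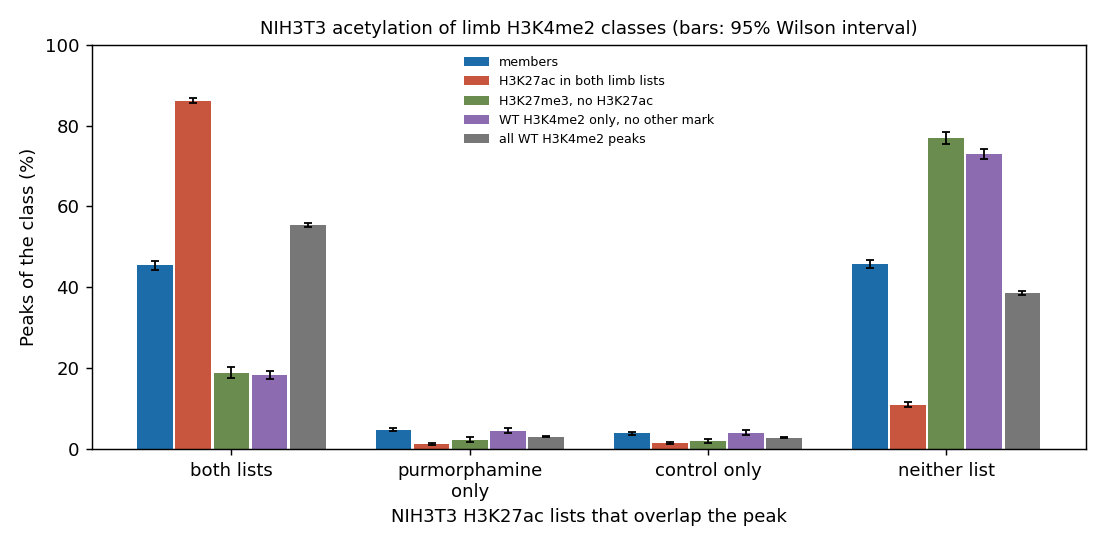
Bars give the percentage of the peaks of each of 5 classes that overlapped H3K27ac in both NIH3T3 lists, with purmorphamine only, in the control only or in neither, with 95% Wilson intervals for counting error. Members (blue) stand at 45.5% in both lists and 45.7% in neither, between peaks acetylated in both limb lists (86.1% in both) and peaks with H3K27me3 (18.8%).

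Width and rank moved with NIH3T3 acetylation. The share of members in both lists was 27.9% (25.3 to 30.7) at widths under 200 bp, 33.7% from 200 to under 400 bp, 52.0% from 400 to under 800 bp and 58.9% (56.8 to 61.1) at 800 bp or more. In the same width bins, all WT H3K4me2 peaks stood at 29.1%, 41.6%, 66.3% and 73.7%. With the WT list cut by rank into 4 equal parts, the members' share went from 60.0% in the best-ranked part to 52.8%, 37.5% and 29.4% in the last, against 72.3%, 69.8%, 46.4% and 33.2% for all peaks. At equal width or rank the members were below the whole list, except in the narrowest bin, where the intervals overlapped (25.3 to 30.7 and 28.1 to 30.2).

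**Figure D4:**
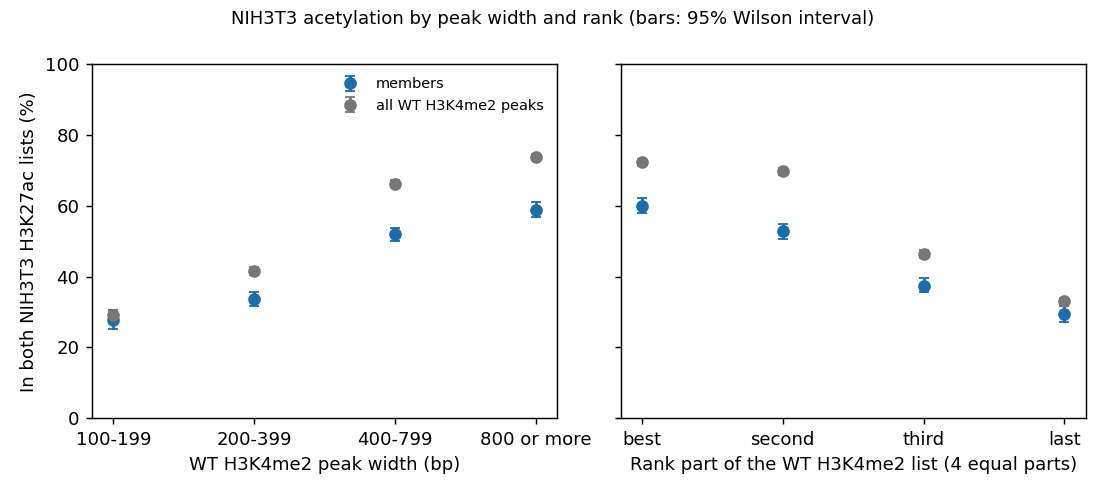
The points give the percentage of peaks in both NIH3T3 H3K27ac lists, on the left by WT H3K4me2 peak width in bp and on the right by the 4 equal parts of the WT list by rank, for members (blue) and all WT H3K4me2 peaks (grey), with 95% Wilson intervals. Members rise from 27.9% to 58.9% with width and lie below all peaks in every bin from 200 bp up.

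Position moved with it as well. In promoter windows 3253 of 5928 members (54.9%) were in both NIH3T3 lists, beside 521 of 2363 (22.0%) outside them, against 17570 of 25797 (68.1%) and 2696 of 10788 in the whole WT list. Shoulders within 1 kb of limb acetylation stood at 57.6% (55.9 to 59.3) and members over 20 kb away at 35.5% (33.8 to 37.2). Unacetylated WT H3K4me2 peaks at these distances, members included, stood at 44.9% (43.6 to 46.2) and 21.9% (20.9 to 22.9). At equal distance from limb acetylation the members were thus above the unacetylated peaks, while at equal width or rank, where acetylated peaks are counted too, they were mostly below the list. By the rule, unacetylated peaks that are no members carry H3K27me3 or lack a Shh-/- H3K4me2 peak. The classes of both kinds had the low shares given above, and width was not matched here. Of the 1361 members that were distal on both counts, 252 (18.5%, 16.5 to 20.7) were in both lists and 1030 (75.7%, 73.3 to 77.9) in neither, while of 3839 such peaks in the whole WT list 11.7% were in both and 83.7% in neither. CpG-rich members and the others were in both lists at like shares, 46.4% (44.4 to 48.3) and 45.2% (43.9 to 46.5). They differed in the single-list states, with 1.78% (1.33 to 2.39) against 4.78% (4.26 to 5.36) in the control only and 3.86% (3.16 to 4.70) against 5.26% (4.71 to 5.86) with purmorphamine only.

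Members seen in a single NIH3T3 list carried weaker NIH3T3 peaks than members of both lists, though these peaks stood near the middle of their own lists. Of the 402 with purmorphamine only, the NIH3T3 peak had a median rank of 47878 in a list of 87809 and a median log2 ratio of 2.71, against a rank of 16904 and a ratio of 3.69 at the members of both lists. The 324 peaks of the control only had a median rank of 49544 of 91023 and a ratio of 2.61. The median rank over all peaks was 43905 in the purmorphamine list and 45512 in the control list. Single-list peaks reached ranks as high as 221 with purmorphamine and 94 in the control. For 254 of the 402 and 230 of the 324, a peak of the other NIH3T3 list lay within 500 bp, so at most of these members acetylation in the other list stopped just short of the H3K4me2 peak. At the 3774 members in both lists, the purmorphamine value minus the control value had a median of 0.16 (quartiles -0.18 and 0.50), next to 0.14 at the 16492 peaks of both lists that were no members.

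Members were spread over the genome. On the autosomes they made up 19.4% (chromosome 18) to 24.1% (chromosome 19) of the WT H3K4me2 peaks of a chromosome. The X chromosome had 375 members of 1308 peaks (28.7%), the highest share of any chromosome but its 2.19 members per Mb were fewer than on any autosome. Chromosome Y had 3 members of 11 peaks.

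The 10 best-ranked members at protein-coding promoters were strong H3K4me2 peaks in both genotypes, with WT log2 ratios of 5.25 to 5.56 and Shh-/- ratios of 3.73 to 4.99. Here and below, best-ranked refers to the WT list, so WT ratios above the Shh-/- ratios follow in part from the choice. They do not show a loss in the mutant. Over all members the WT value minus the Shh-/- value had a median of -0.18. At the head stood chr19:46328100-46329649, which covers the starts of the F-box protein gene Fbxl15 and of Psd, at rank 12 with ratios of 5.56 in WT and 3.88 in Shh-/-. It lay 8751 bp from WT H3K27ac and 1101 bp from H3K27me3, and was acetylated in NIH3T3 cells with ratios of 4.54 with purmorphamine and 3.70 in the control. The member at Psat1, an enzyme of serine synthesis (chr19:15923600-15925699, rank 16), had 5.51 in WT and 3.73 in Shh-/-, and the nearest WT H3K27ac peak was 58551 bp away. Its NIH3T3 ratios were 3.47 with purmorphamine and 3.75 in the control. At these promoters the called limb H3K27ac peaks were thus at a distance, while both of the longer NIH3T3 lists had a peak there.

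The member at Slain1, a microtubule-binding protein (chr14:103649700-103651399, rank 14), had 5.53 in WT and 4.09 in Shh-/- and no NIH3T3 peak, with H3K27me3 151 bp away. The member at Galntl6, of the family that begins mucin-type glycosylation, and BC030500 (chr8:58911750-58913499, rank 29) had 5.39 and 4.99, lay 340551 bp from the nearest acetylation and also had none in NIH3T3 cells. Both sat beside an H3K27me3 peak that they did not overlap, at 151 and 1201 bp.

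A further pair of promoter members among the 10 were isolated from limb acetylation or nearly so. The member at Jcad, an endothelial junction gene (rank 43), had 5.34 in WT and 4.27 in Shh-/- and NIH3T3 ratios of 4.21 and 4.08. Tnik, a kinase of the Wnt pathway (rank 64), had 5.25 and 4.39 and NIH3T3 ratios of 3.40 and 3.21, 76151 bp from WT H3K27ac. Shoulders were also among them. Prkg1, a kinase activated by cyclic GMP (rank 31), lay 301 bp from WT H3K27ac, Zcchc14 (rank 65) 951 bp, and Ipo8 (rank 61) abutted the WT peak while the nearest Shh-/- peak was 112851 bp away.

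Outside promoters, the best-ranked member was chr8:95320400-95320999, which overlaps an exon 9097 bp from the start of Tepp, with 5.44 in WT, 3.60 in Shh-/- and no NIH3T3 peak. The second was the Vgll4 intron whose sequence is printed above (chr6:114967800-114970099, rank 122), with 5.11 in WT, 4.75 in Shh-/-, 4.30 with purmorphamine and 4.71 in the control, and limb acetylation 201 bp away. The Mycbp2 flank (chr14:103349350-103350299, rank 195) had 5.00 and 4.23. The next 7, nearest to Zfp947, Shc3, Tlr5, Msl2, Hfe2, Mamstr and Plekhg6, had WT ratios of 4.75 to 4.98 and Shh-/- ratios of 2.68 to 4.89. Of the 10, 5 were in both NIH3T3 lists and 5 in neither. The member near Msl2, a subunit of a histone acetyltransferase complex, differed most between the NIH3T3 lists, with 5.35 with purmorphamine and 2.55 in the control.

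The best-ranked members with purmorphamine-only acetylation were at Prkg1, at the receptor tyrosine phosphatase gene Ptprj (rank 154, 5.06 in WT) and at the junction protein gene Jam2 (rank 315, 4.89). Their NIH3T3 ratios were 2.42, 2.69 and 2.69. With control-only acetylation they were at Kifc2 and Cyhr1 (rank 295), at the acyl-CoA synthetase gene Acsl6 (rank 379) and at Rab3c, a GTPase of synaptic vesicles (rank 404), with NIH3T3 ratios of 2.14, 2.70 and 2.47. In each case a strong limb H3K4me2 peak coincided with an NIH3T3 peak below the median ratio at members of both lists. Those medians were 3.69 with purmorphamine and 3.52 in the control. The Acsl6 peak, at rank 40666 of 91023, was still above the middle of its list.

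Counted by gene, 5030 of 21938 protein-coding genes (22.9%) had a member in a promoter window. In 2646 of these a promoter window of the gene also held limb H3K27ac, and in 407 one held H3K27me3 and none held H3K27ac. Windows of alternative starts were counted together per gene, so the member and the other mark could lie in different windows. The remaining 1977 genes (9.01% of all), with neither mark in any of their windows, had H3K4me2-only promoters. Counted over the windows of a gene in the same way, 1151 of those 1977 (58.2%) had H3K27ac in both NIH3T3 lists. Another 59 (2.98%) had it with purmorphamine only, 36 (1.82%) in the control only and 731 (37.0%) in neither. The same count was not made over all genes, so whether these shares are high or low is not known. They are shares of genes and cannot be set against the shares of peaks above.

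Genes that define the limb bud rarely had a member in a promoter window. All 16 genes of a limb mesenchyme list had WT H3K4me2 and WT H3K27ac in a promoter window, so the labelled tissue was seen in its markers, and of 24 limb patterning genes all had H3K4me2 and 18 had H3K27ac. Shh-/- H3K27me3 lay in a promoter window of 8 of the 16 and 20 of the 24. The rule leaves out peaks that overlap either mark, so a low count of members at these genes follows in part from the rule. A member lay in the promoter window of 1 gene of each list (6.25% and 4.17%, beside 22.9% of all protein-coding genes). In the gene body or within 20 kb, 5 of the 16 mesenchyme genes (31.2%) and 9 of the 24 patterning genes (37.5%) had one, beside 43.0% of all genes. The genes with a member in a promoter window were Fgf10, the growth factor of the limb mesenchyme that maintains outgrowth, and Bmp4, a signal of the limb margin. Both members were narrow edges of acetylated promoters, 150 bp at Fgf10 (rank 35490, 2.14 in WT and 4.94 for the wider Shh-/- peak) and 100 bp at Bmp4 (rank 30672, 2.36 and 3.60). An H3K4me2-only promoter was not possible at the 16 mesenchyme genes, since the term leaves out genes with limb H3K27ac in a window. Of 15 chondrogenic genes 0 had a member in a promoter window and 6 (40.0%) had one in the gene body or within 20 kb.

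The lists of other cell types were near or below the 22.9% of all genes in promoter windows. Of 15 blood genes 3 had a member there (20.0%) and all 3 promoters were H3K4me2-only, beside 9.01% of all genes, while 0 of the 15 had WT H3K27ac there. They were Klf1, the erythroid activator (rank 1310 in WT and 5586 in Shh-/-, no NIH3T3 peak), Nfe2, a leucine-zipper factor of erythroid cells and megakaryocytes (2.84 and 2.65, no NIH3T3 peak), and Cd44, a hyaluronan receptor that is also made by many other cells (4.05 and 4.82). Cd44 was acetylated in NIH3T3 cells at 4.61 with purmorphamine and 4.91 in the control. Of the 15 blood genes, 6 had WT H3K4me2 and 5 had Shh-/- H3K27me3 in a promoter window. A list of 15 genes is too short to set 3 H3K4me2-only promoters apart from 9.01%. Among 18 neural genes, 2 had a member (11.1%): Snap25, of the synaptic fusion machinery, with 4 members across its promoter window and the only H3K4me2-only promoter of the list, and Pou3f2. Shh-/- H3K27me3 lay in a promoter window of 17 of the 18, and the rule leaves out peaks that overlap it.

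In the other lists few or no promoters were H3K4me2-only, beside 9.01% over all genes. Of 15 myogenic genes Met, a receptor of migrating muscle precursors (4.45 in WT, 4.16 in Shh-/-), and Mef2c (4.33 and 4.44) had a member, of 15 endothelial genes Erg (4.67 and 3.96), and of 15 surface ectoderm genes Krt18 (2.53 and 2.94) and Perp (2.27 and 3.87). No gene of 14 endodermal or 14 germline genes had one, but only 6 of the endodermal genes and 1 germline gene had WT H3K4me2 in a promoter window. Of 15 housekeeping genes 4 had a member, among them Tbp and Polr2a, where it lay 151 and 51 bp from WT H3K27ac, and B2m, the light chain of class I major histocompatibility molecules, whose promoter was H3K4me2-only in the limb (3.12 and 3.40) and acetylated in NIH3T3 cells (4.11 and 4.44). The myogenic, endothelial and ectodermal lists had 0 H3K4me2-only promoters each, and lists of 15 genes are too short to set this apart from 9.01%. Shh-/- H3K27me3 lay in a promoter window of 8 myogenic, 7 endothelial and 12 ectodermal genes.

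Hedgehog binding to Patched releases Smoothened, which through the kinesin Kif7 and the inhibitor Sufu changes the GLI transcription factors from repressors to activators. Of 15 genes of this pathway, 3 had a member in a promoter window, beside 22.9% of all protein-coding genes, and 5 had one in the gene body or within 20 kb, against 43.0% of all genes. At Hhip, a Hedgehog-binding inhibitor and pathway target, the member chr8:80058250-80058649 had 3.54 in WT and 3.18 in Shh-/-, no NIH3T3 peak, H3K27me3 551 bp away and WT H3K27ac 8501 bp away. At Sufu both members (3.79 and 3.37 in WT, 3.01 and 3.42 in Shh-/-) lay at most 251 bp from limb acetylation and were shared with the window of the neighbouring Actr1a. The members near Gli1 and Smo were in the promoter windows of Mars and Ahcyl2.

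Kif7 was the gene of the pathway with an H3K4me2-only promoter (6.67% of the list, beside 9.01% of all genes). It was the nearest gene of 6 members, at least 49301 bp from any limb H3K27ac peak. The member at its start, chr7:79715050-79715799, had 3.41 in WT, 3.65 in Shh-/-, 3.32 with purmorphamine and 2.58 in the NIH3T3 control. A second, chr7:79715950-79716099, had 2.34 and 3.13, and an NIH3T3 peak of 2.40 with purmorphamine only. The other 4, from 79710050 to 79721899, had WT ratios of 2.16 to 4.03, and none had an NIH3T3 peak. Those starting at 79721100 and 79721400, the latter with the 4.03, overlapped an exon in the gene body of Plin1. They lay 5479 and 5929 bp from the Kif7 start. That at 79710050 was in the Kif7 gene body and in the promoter window of no protein-coding gene. These members were short pieces, 150 to 750 bp wide, and 2 pairs of them shared 1 Shh-/- peak each.

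GLI factors bind the letters GACCACCCA, which were searched on both strands of each member's central 300 bp. They were found in 26 members (0.314%, interval 0.214 to 0.459), beside 0.339% of all WT H3K4me2 peaks and 0.251% of 41492 windows of the same length at annotated transcription starts. Among the 1361 distal members far from acetylation 9 matched (0.661%, 0.348 to 1.25), against 0.417% (0.257 to 0.676) of such peaks in the whole list, with overlapping intervals. Of the 26, 12 were in both NIH3T3 lists, 3 with purmorphamine only, 0 in the control only and 11 in neither. The 3 best-ranked outside promoters and exons are shown to place the match in its surroundings, from GRCm38, plus strand, with the reverse complement of the letters in capitals.
Dctn6 flank, chr8:34080660-34080724: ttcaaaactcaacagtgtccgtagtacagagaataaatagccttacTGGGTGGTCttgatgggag
Camta1 intron, chr4:151386945-151387045: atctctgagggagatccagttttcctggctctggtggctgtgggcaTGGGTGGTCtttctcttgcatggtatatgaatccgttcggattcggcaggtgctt
Rab6b intron, chr9:103092499-103092599: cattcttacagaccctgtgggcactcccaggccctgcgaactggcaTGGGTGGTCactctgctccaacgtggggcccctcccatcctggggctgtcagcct
Their members had WT ranks of 4813, 9038 and 9847. Other letters were about as common in members as in all WT H3K4me2 peaks, with overlapping intervals, except the E-box CAGCTG. It was in 17.9% of members (interval 17.1 to 18.8) and 16.1% of all peaks (15.8 to 16.5). The SP/KLF letters GGGCGGGG were in 9.93% and 9.21% and the AP-1 letters TGANTCA in 5.83% and 5.75%. For the homeodomain letters TAATTA the shares were 5.13% and 5.62%, and for the CTCF letters AGGGGGCGC 1.15% and 0.959%. A match is not a bound site.

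The genes nearest to most members pointed to repeated genes. They were Pdia4, an endoplasmic reticulum isomerase, with 11 members of 16 WT H3K4me2 peaks nearest to it, and Ezh2, Gpx5, Trim27 and Zfp217. Ezh2, the catalytic subunit of Polycomb repressive complex 2, had 9 of 12 and Gpx5 9 of 10. Trim27 had 8 of 18 and Zfp217 8 of 21, where members made up 22.6% of the whole list. All but 1 of the 20 members nearest to Ezh2 and Pdia4 on chromosome 6 lay in an array between these genes, and the other lay beyond it, from 47780800 to 47781099. From 47650900 to 47778999 there were 19 WT H3K4me2 peaks, and all 19 were members. In that stretch 13 copies of Rn4.5s were found, the gene of 4.5S RNA, a short noncoding RNA of rodents made by RNA polymerase III. The search for these copies was added after the positions of the members were seen.
Rn4.5s, chr6:47654921-47655094, minus strand: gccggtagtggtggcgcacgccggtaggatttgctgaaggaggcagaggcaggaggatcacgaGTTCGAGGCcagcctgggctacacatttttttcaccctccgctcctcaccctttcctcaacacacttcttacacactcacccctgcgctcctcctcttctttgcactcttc
The capitals mark letters that match the B box, an internal promoter element of RNA polymerase III genes, searched as GTTCGANNC. In the central 300 bp these letters were no more common in members (1.51%, interval 1.27 to 1.79) than in all WT H3K4me2 peaks (1.83%, 1.69 to 1.97) or in peaks acetylated in both limb lists (2.13%, 1.88 to 2.40), and they were in 0.810% of the windows at transcription starts. Of the 13 copies, 11 were identical to these 174 bases and the others matched at 94.8% or more, and every copy had a member within 511 bp. The 19 members outnumbered the 13 copies, so some members were not the peak nearest to any copy. The starts of neighbouring peaks were a median of 4325 bp apart, and 13 of the 18 spacings were between 4 and 5 kb.

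All but 1 of the 19 array members were acetylated in both NIH3T3 lists. Their WT H3K4me2 ratios ran from 2.17 to 3.95 and their Shh-/- ratios from 2.55 to 3.34. NIH3T3 H3K27ac ran from 3.32 to 4.64 with purmorphamine and from 2.66 to 3.48 in the control, and the purmorphamine value was higher at 18 of 18 members. Over all 3774 members of both lists, the purmorphamine value minus the control value had a median of 0.16 (quartiles -0.18 and 0.50). The limb H3K27ac lists and the H3K27me3 list had 0 peaks in the array. Reads that lie within identical copies cannot be told apart, but the nearest members lay outside the copies, 13 to 511 bp away. Whether the sequence at the members is repeated too was not examined. If it is, the 18 values are not independent, so the share of each member is uncertain.

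**Figure D5:**
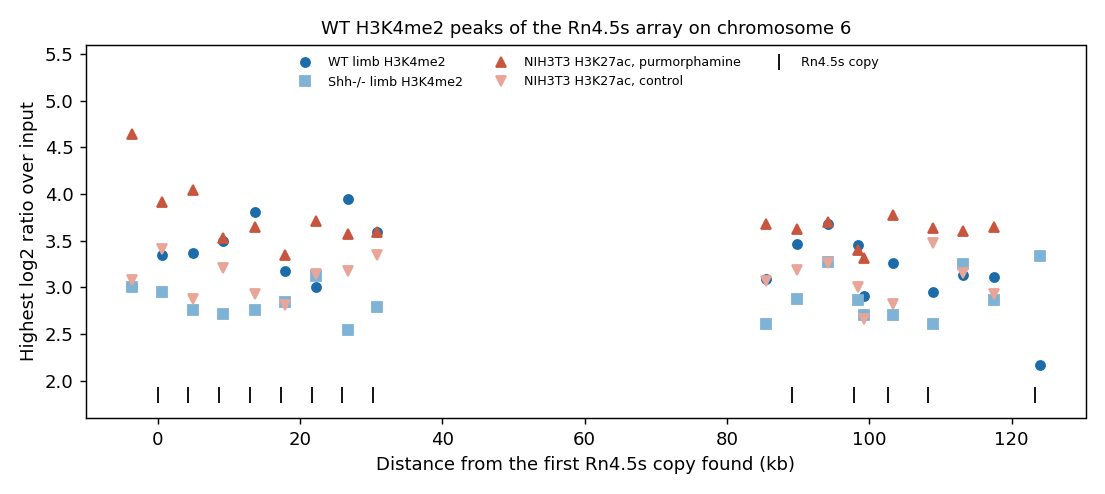
For the 19 members of the Rn4.5s array, the y axis gives the highest log2 ratio over input of WT and Shh-/- limb H3K4me2 (circles, squares) and of NIH3T3 H3K27ac with purmorphamine or in the control (triangles up and down), against the distance in kb from the first of the 13 Rn4.5s copies (ticks). Every copy has a member within 511 bp, but the 19 members outnumber the 13 copies, so not every member is paired with a copy. The purmorphamine value is above the control value at 18 of 18.

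Transfer RNA genes, which are also transcribed by RNA polymerase III, lay beside another set of members. Within 500 bp of a transfer RNA gene of the RefSeq annotation there were 123 members (1.48%, interval 1.24 to 1.77), beside 0.790% of all WT H3K4me2 peaks, 0.811% of the WT-only peaks with no other mark, 0.534% of the peaks acetylated in both limb lists and 0.422% of the stable peaks with H3K27me3. This comparison was also added after the members' positions were seen. Seen from the genes, 137 of 403 transfer RNA genes (34.0%, 29.5 to 38.8) had a member within 500 bp, 39 of them overlapping it, and 260 (64.5%) had some WT H3K4me2 peak. Of the 137, 40 also had limb H3K27ac within 500 bp. On chromosome 13 a member was that close to 57 of 105 transfer RNA genes and on chromosome 6 to 0 of 53.

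Of the 123 members, 44 were in both NIH3T3 lists and 62 in neither, and 51 lay over 5 kb from limb acetylation. The clusters near Gpx5 and Trim27 on chromosome 13 were of this kind, with a transfer RNA gene within 500 bp of 8 of 9 and 8 of 8 members. In them 0 of 9 and 0 of 8 members were in both NIH3T3 lists, in contrast to the Rn4.5s array. None of the 8 members nearest to Zfp217 had a transfer RNA gene so close, and 2 of them were in both lists.

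Gene families read from their symbols were chosen after values were seen and carry no test. Among them, 151 of 394 zinc-finger genes (Zfp) had a member in a promoter window (38.3%, beside 22.9% of all protein-coding genes). An H3K4me2-only promoter was found at 58 (14.7%, beside 9.01% of all genes). Zfp promoters also carried WT H3K4me2 more often, at 357 of 394 against 14045 of 21938 genes in all. Solute carriers had 103 of 371 (27.8%), potassium channels 26 of 94 (27.7%) and protocadherins 5 of 69 (7.25%). Of 1135 olfactory receptor genes and 67 histone genes none had a member there. Histone genes were acetylated in the limb at 66 of 67 promoters, while only 5 olfactory receptor genes had a WT H3K4me2 peak.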

How the data were processed

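ChIP-seq peak lists of 7 conditions were used, with groups taken from the sample labels. Per the submitters' processing notes, reads were aligned with Bowtie2 2.2.5 to mm10, and the notes also name limma. By the study's methods the authors called peaks against input with CisGenome, entering both replicates of a condition together. The lists do not show how deeply each library was sequenced. The authors deposited for each peak its rank, its position, a false discovery rate (a q-value of the peak caller), a score on which the rank is ordered, the highest log2 ratio over input within the peak and the −log10 of a Poisson p-value. These values served to order, describe and, in some alternatives, filter peaks.

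The 19 autosomes and both sex chromosomes were kept, which left out 28 WT H3K4me2 peaks on scaffolds, 19 of which would meet the rule. Positions are those deposited, with starts in steps of 50 bp, and may be shifted by 1 bp. A distance of 1 bp means that peaks abut. No peak ran past a chromosome end of GRCm38, which is mm10 under its assembly name. Genes came from the basic GENCODE set of release M21 and transfer RNA genes and Rn4.5s from RefSeq. Overlaps were computed in Python 3.11.15 with pandas 2.3.3, tested on simulated intervals, and bedtools 2.31.1 gave the same 8291 members. A gene was nearest by the distance from the peak's centre to a protein-coding start. Motifs were exact matches on either strand of the central 300 bp, and 17 were searched, the B box among them as an addition after values were seen.

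Intervals are 95% Wilson intervals over peaks, which are not replicates of a condition. The members, gene lists and comparisons were chosen with earlier results of these data known. Genes were named by a fixed rule: the 10 best-ranked members at protein-coding promoters and the 10 outside promoters, the 5 genes nearest to most members, the best-ranked members of each NIH3T3 state (5 of both lists and 3 of each list alone), genes of 12 lists with a member in a promoter window, and members at the edge of the rule. Some of these items are not reported here. The distance bins from limb acetylation, the Rn4.5s array, the transfer RNA genes and the gene families by symbol were added after values were seen. The alternatives were 14 planned settings and 1 added setting.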

Additional observations from a re-analysis of the deposited data

How the results depend on the processing

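Each list pooled its replicates, so leaving out a replicate was not possible and no result has a test. No paired analysis was possible because both replicates of a condition were entered together and no list belongs to a numbered replicate. Members numbered 5160 when peaks within 500 bp of acetylation or H3K27me3 were also excluded, 3575 within 5 kb, 15743 when exclusion needed 50% of the peak covered, 3285 in the better-ranked 50% of the H3K4me2 lists and 4233 after peaks within 1 kb were merged. The other settings left 6955 to 9946, within 1.5 times of 8291. Values below are the shares in both NIH3T3 lists, with purmorphamine only, in the control only and in neither, then the promoter share, each named only where it left the Wilson interval of the main value.

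With 50% of the WT peak covered by Shh-/- H3K4me2 they were 47.6% in both, 44.0% in neither and 73.8% in promoters. Exclusion within 500 bp gave 39.1%, 4.24%, 3.28%, 53.4% and 65.6%, and within 5 kb 40.1%, 3.89%, 2.38%, 53.7% and 68.3%. Exclusion only at 50% covered gave 61.1%, 3.40%, 2.93%, 32.6% and 80.5%. An FDR under 0.05 in every list gave 47.5% in both, 44.1% in neither and 73.9% in promoters. The better-ranked 50% of the H3K4me2 lists gave 58.5%, 3.84%, 2.56%, 35.1% and 83.8%. Merged peaks gave 40.0%, 3.61%, 2.22%, 54.1% and 65.8%. The mirrored rule on the Shh-/- list gave 4.58% in the control only and 72.8% in promoters. Counting NIH3T3 peaks within 500 bp as overlapping gave 57.8%, 3.28%, 2.36% and 36.6%, the better-ranked 50% of each NIH3T3 list 36.5%, 6.12%, 4.39% and 53.0%, and base pairs in place of peaks 33.6%, 6.47%, 5.66% and 54.3%. Promoters of 500 bp on either side took 59.8% of members and those of protein-coding genes 65.4%. Autosomes alone moved no value out of its interval, nor did leaving out the 142 members at transfer RNA genes and in the Rn4.5s array, a setting chosen after seeing the data. The cause of these moves was not tested, except that stricter exclusion and merging leave fewer peaks by construction.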

Other observations

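The members were close to the whole WT list in repeat content, and the classes compared with them differed from it. At the central 300 bp, more than 50% of the bases were repeat-masked in 200 members (2.41%), in 2.60% of all WT H3K4me2 peaks, in 6.55% of the WT H3K4me2 peaks with no other mark and no Shh-/- peak, in 1.84% of the peaks acetylated in both limb lists and in 0.292% of the stable peaks with H3K27me3. Members within 1 kb of limb acetylation stood at 3.81% and members over 5 kb away at 1.44%, beside 5.03% and 2.17% of the unacetylated WT H3K4me2 peaks at these distances.

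The member near Mef2c, a gene of muscle and heart development, was 1 of 6 that had this gene as the nearest, out of 10 WT H3K4me2 peaks. Of these 6 members, 3 were in both NIH3T3 lists and 3 in neither. Dlg2, a synaptic scaffold gene, was nearest to 7 members out of 8 peaks, 5 of them in neither list, and Bcas1 to 7 of 9, all 7 in neither. These clusters were picked after their counts were seen.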
